A study of Mus musculus with 6 samples.

Results

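Integrins are cell surface receptors built from 1 alpha and 1 beta chain, and PSGL-1, encoded by Selplg, is the main selectin ligand of leukocytes. The transcripts of 9 integrin chains (Itgal, Itgb2, Itga4, Itgb1, Itgb7, Itgae, Itgav, Itgb8 and Itga6) and of Selplg were examined in regulatory T cells (Tregs), which are CD4 T cells that express Foxp3 and restrain other lymphocytes. These 10 genes were taken by symbol, out of 24421 genes in the deposited count table, and all 10 passed the filter on low counts that left 11932 genes for testing. RNA came from Tregs of mouse spleen and lymph nodes, from 3 Srebp2cKO libraries (replicates 6, 7 and 8) and 3 Srebp2WT libraries (replicates 1, 3 and 5). Srebp2cKO is the genotype Srebp2FL/FL-Foxp3YFPCRE+/-, with floxed alleles of Srebf2, whose product SREBP2 switches on genes of cholesterol synthesis. Srebp2WT is Srebp2WT/WT-Foxp3YFPCRE+/+, so both genotypes carried a Cre recombinase with yellow fluorescent protein at Foxp3, but its allele dose differed with the Srebf2 genotype. The Cre is driven from the Foxp3 locus and acts in cells that express Foxp3. Foxp3 is X-linked, so a +/- female can also hold Tregs in which the Cre allele is silent. The labels give neither the age and number of the animals nor whether animals were pooled. The p-values here therefore rest on the spread among 6 libraries that may share animals, and that spread may be technical.

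In a T cell, integrins hold the cell to other cells and to matrix once signals from inside the cell have switched them to a binding form. LFA-1, made of the Itgal and Itgb2 chains, binds ICAM molecules. The Itga4 chain pairs with Itgb1 to bind VCAM-1 and with Itgb7 to bind the gut addressin MAdCAM-1, and Itgae pairs with Itgb7 to bind E-cadherin of epithelia. Itgav with Itgb8 releases active TGF-beta from its latent form, a known function of activated Tregs. PSGL-1 carries sugars that let cells roll on selectins.

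Library totals lay between 13918321 and 17249898 assigned counts. Srebf2 checked the labels, at 13.7, 12.7 and 10.7 CPM (counts scaled to library size with TMM factors) in Srebp2cKO and 191, 192 and 172 CPM in Srebp2WT. Foxp3 stood at 466, 419.7 and 419 CPM in Srebp2cKO and 440.4, 459.8 and 461 CPM in Srebp2WT, with a log2 fold change of -0.06 (edgeR adjusted p = 0.611). The summed Treg markers Foxp3, Cd4, Cd3e, Il2ra, Ctla4 and Ikzf2 ran from 4115 to 4216 CPM in Srebp2cKO and from 4109 to 4233 CPM in Srebp2WT. Within that sum Il2ra was called higher, at 922, 896 and 941 CPM in Srebp2cKO against 700.1, 678 and 695 CPM in Srebp2WT (log2 fold change 0.41, edgeR adjusted p = 0.0101). Without overlap but not called were Ikzf2 (log2 fold change -0.26, edgeR adjusted p = 0.0645), Ctla4 (0.23, edgeR adjusted p = 0.0897) and Cd3e (-0.09, edgeR adjusted p = 0.434). Every member was well covered, with 409 to 17490 counts in any library.

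Transcripts of Itgal, Itgb1 and Itgb8 fell in Srebp2cKO Tregs, to 74.2%, 63.7% and 63.2% of their Srebp2WT levels. Their partner chains Itgb2, Itga4, Itgav and Itga6 did not pass the test, though Itgav was lower and Itga6 higher without overlap. A gene counts as called where its adjusted p over all 11932 genes in edgeR's quasi-likelihood test is under 0.05. Of the 10 members, 3 were called lower and 0 higher, where 4.24% of all tested genes were called lower and 2.37% higher. At an adjusted p under 0.1, 4 members were lower and 1 higher, against 8.65% and 7.22% of all tested genes. At an unadjusted p under 0.05, 5 members were lower and 1 higher, against 14.3% and 14.8%, and DESeq2 called 4 members lower and 1 higher, against 6.52% and 5.25% of all tested genes. The median log2 fold change was -0.21 over the members and -0.00015 over all tested genes. The libraries of the genotypes did not overlap for 5 members that were lower in Srebp2cKO (15.5% of all tested genes) and for 1 that was higher (16% of all tested genes). With 1 library left out, 0 members were called lower without Srebp2WT replicate 1, 1 without Srebp2WT replicate 3 (Itgb1) and 1 without Srebp2cKO replicate 7 (Itgal). In those same fits the genes called lower over the whole table numbered 135, 155 and 223, against 506 with all libraries. Over the 6 such fits the log2 fold change ran from -0.48 to -0.38 for Itgal, from -0.80 to -0.56 for Itgb1 and from -0.84 to -0.56 for Itgb8. In a bulk sample, fewer cells of a type and less RNA per cell cannot be told apart.

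**Figure D1:**
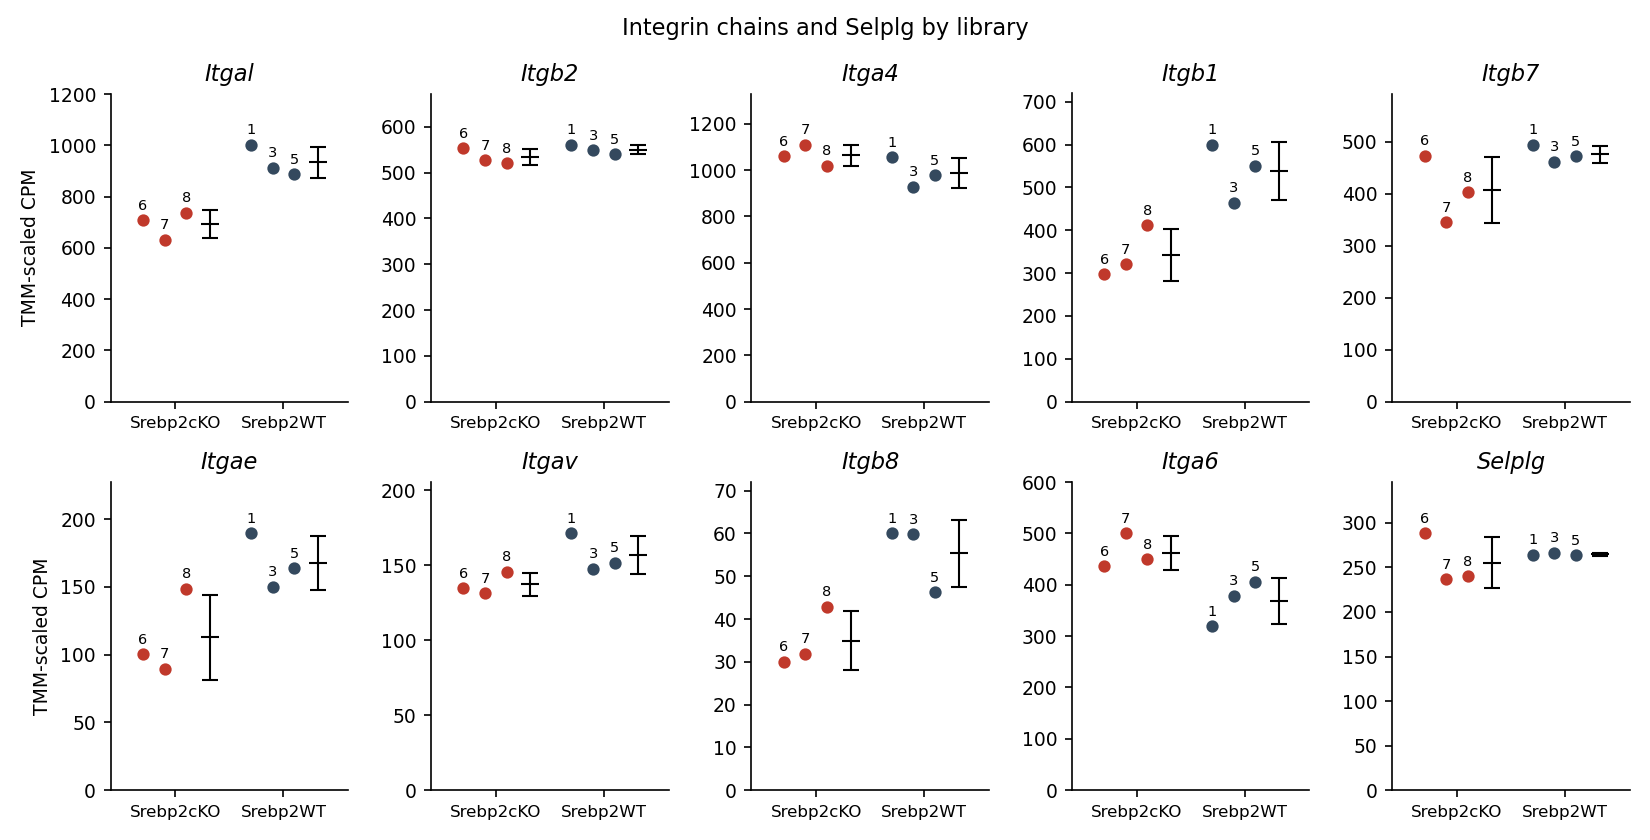
TMM-scaled CPM of each of the 10 members by library, Srebp2cKO (red) left of Srebp2WT (dark blue), each axis starting at 0. Points carry the replicate number, and the bar beside them is the mean ± SD of 3 libraries. Itgal, Itgb1 and Itgb8 have every Srebp2cKO point under every Srebp2WT point, while Itgb2, Itga4, Itgb7 and Selplg overlap.

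Itgal, the alpha chain of LFA-1, lies on chromosome 7 from 127296260 to 127335138 on the plus strand (GRCm38). It had 709, 632 and 738 CPM in Srebp2cKO replicates 6, 7 and 8, against 1002, 914 and 888 CPM in Srebp2WT replicates 1, 3 and 5. Every Srebp2cKO library lay below every Srebp2WT library, and the gap between the nearest of them was larger than the SD of either genotype. The means were 693 ± 54.7 CPM in Srebp2cKO and 935 ± 59.97 CPM in Srebp2WT (SD, n = 3 libraries each, as for every mean ± SD here). Itgal fell to 74.2% of its Srebp2WT level (log2 fold change -0.43, SE 0.09, 95% interval -0.62 to -0.24, edgeR adjusted p = 0.0210). The call was lost without Srebp2WT replicate 1 (edgeR adjusted p = 0.0943) and without Srebp2WT replicate 3 (edgeR adjusted p = 0.0827).

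Itgb2, the beta chain that LFA-1 shares with the myeloid integrins, lies on chromosome 10 from 77530252 to 77565708 on the plus strand. It had 553, 527 and 520.3 CPM in Srebp2cKO, against 560.4, 549 and 539.7 CPM in Srebp2WT. The libraries of the genotypes overlapped, and the spread in each was small, with means of 533 ± 17.3 CPM in Srebp2cKO and 549.7 ± 10.3 CPM in Srebp2WT. Its log2 fold change was -0.04 with a 95% interval of -0.20 to 0.11 (edgeR adjusted p = 0.707), and it was 0.03 with the GC trend removed, as described below. That interval does not reach the -0.43 estimated for Itgal.

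Itgb1, the beta chain of the VLA integrins that bind fibronectin, laminin and VCAM-1, lies on chromosome 8 from 128685654 to 128733200 on the plus strand. It had 297, 320.3 and 411 CPM in Srebp2cKO, against 599, 464 and 551 CPM in Srebp2WT. The genotypes did not overlap, although Srebp2cKO replicate 8 came within 1 SD of Srebp2WT replicate 3. Itgb1 averaged 343 ± 60.2 CPM in Srebp2cKO and 538 ± 68.5 CPM in Srebp2WT, and it fell to 63.7% of the Srebp2WT level (log2 fold change -0.65, SE 0.13, 95% interval -0.94 to -0.36, edgeR adjusted p = 0.0210). The call was lost without Srebp2WT replicate 1 (edgeR adjusted p = 0.0978) and without Srebp2cKO replicate 7 (edgeR adjusted p = 0.0579).

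Itgb8, the beta chain of the TGF-beta activating integrin, lies on chromosome 12 from 119158022 to 119238802 on the minus strand and was the least abundant member. It held 409, 494 and 735 counts in Srebp2cKO and 958, 928 and 683 counts in Srebp2WT. Scaled to library size these were 30.0, 31.9 and 42.9 CPM in Srebp2cKO, against 60.03, 59.8 and 46.2 CPM in Srebp2WT. The raw counts of the genotypes overlapped, and the scaled levels did not, since Srebp2cKO replicate 8 was the deepest library. Itgb8 averaged 34.9 ± 6.93 CPM in Srebp2cKO and 55.3 ± 7.90 CPM in Srebp2WT, and it fell to 63.2% (log2 fold change -0.66, SE 0.15, 95% interval -0.99 to -0.34, edgeR adjusted p = 0.0291). Of the 6 fits that left out 1 library, 3 kept the call. It was lost without Srebp2WT replicate 1, Srebp2WT replicate 3 or Srebp2cKO replicate 7 (edgeR adjusted p = 0.128, 0.112 and 0.0852).

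The promoters of Itgb1 and Itgb8 are shown because both genes fell and both beta chains have a sequence in the RefSeq promoter table. That table, on GRCm38.p6, held 5 of the 10 members (Itga4, Itgb1, Itgb7, Itgav and Itgb8). Each window runs from 250 bases before to 50 bases after the RefSeq transcription start, at chr8:128685404-128685703 on the plus strand for Itgb1 and chr12:119238227-119238526 on the minus strand for Itgb8. The Itgb8 window lies inside the gene span given above, which reaches 119238802, so bases before that annotated start were not searched. Capitals mark matches to the 3 words searched on both strands, and the only match in these windows was the GC box of Itgb1.
Itgb1: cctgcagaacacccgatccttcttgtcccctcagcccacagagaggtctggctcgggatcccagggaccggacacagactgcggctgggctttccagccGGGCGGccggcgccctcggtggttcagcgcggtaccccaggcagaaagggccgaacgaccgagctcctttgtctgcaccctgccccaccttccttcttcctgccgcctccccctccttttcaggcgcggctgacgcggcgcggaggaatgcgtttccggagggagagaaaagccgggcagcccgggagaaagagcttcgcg
Itgb8: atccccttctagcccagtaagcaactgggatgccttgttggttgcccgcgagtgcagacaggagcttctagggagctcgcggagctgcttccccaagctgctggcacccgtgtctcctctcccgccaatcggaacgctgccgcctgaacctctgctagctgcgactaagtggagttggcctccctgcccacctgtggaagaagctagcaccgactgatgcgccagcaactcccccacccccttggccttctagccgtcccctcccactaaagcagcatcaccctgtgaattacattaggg
The words were a sterol regulatory element (TCACNCCAC), an E-box (CACGTG) and a GC box (GGGCGG), which do not overlap each other. The sterol element was found in 0 of the 5 members' windows and in 1.24% of 32851 promoters of the same length. The E-box was found in 0 of 5 and in 7.15% of all promoters. The GC box was found in 3 of 5, namely Itga4, Itgb1 and Itgav, and in 35.7% of all promoters. GC content was 67.3% in the Itgb1 window and 60.7% in the Itgb8 window.

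Itga4, the alpha chain of the VCAM-1 and MAdCAM-1 receptors, lies on chromosome 2 from 79255426 to 79333123 on the plus strand. It had 1060.3, 1109 and 1019.7 CPM in Srebp2cKO, against 1056, 928 and 978 CPM in Srebp2WT. The genotypes overlapped (log2 fold change 0.11, 95% interval -0.07 to 0.28, edgeR adjusted p = 0.396), and the value was -0.11 with the GC trend removed. Its exons overlap those of Cerkl, on the opposite strand, by 127 bases, and Cerkl held 49 to 97 counts per library.

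Itga6, which pairs with Itgb1 as a laminin receptor, lies on chromosome 2 from 71745616 to 71858416 on the plus strand. It had 436, 500.1 and 449.6 CPM in Srebp2cKO, against 319, 379 and 406 CPM in Srebp2WT. It was the 1 member with every Srebp2cKO library above every Srebp2WT library, yet it missed the threshold (log2 fold change 0.33, SE 0.10, 95% interval 0.11 to 0.55, edgeR adjusted p = 0.0712). DESeq2 called it (DESeq2 adjusted p = 0.0228), as did the fit with no filter on low counts (edgeR adjusted p = 0.0485) and the fit without Srebp2WT replicate 5 (edgeR adjusted p = 0.0459).

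Itgb7, the beta chain of the gut-homing integrins, lies on chromosome 15 from 102215995 to 102231944 on the minus strand. It had 472, 345 and 403 CPM in Srebp2cKO, against 494, 461 and 472 CPM in Srebp2WT. Replicate 6 of Srebp2cKO lay among the Srebp2WT libraries and the other two lay below them (log2 fold change -0.23, 95% interval -0.46 to 0.01, edgeR adjusted p = 0.186). Without Srebp2cKO replicate 6 the log2 fold change was -0.35 (edgeR adjusted p = 0.0404), and with the GC trend removed it was -0.03.

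Itgae, the CD103 chain of tissue-retained T cells, lies on chromosome 11 from 73090583 to 73147446 on the plus strand. It had 100.2, 89.5 and 149 CPM in Srebp2cKO, against 189.5, 150.03 and 164 CPM in Srebp2WT. The genotypes were separated by a narrow margin between Srebp2cKO replicate 8 and Srebp2WT replicate 3. Its log2 fold change of -0.57 (SE 0.17, 95% interval -0.94 to -0.20) was close to that of Itgb1, but the spread in Srebp2cKO was wider, at 113 ± 31.4 CPM against 168 ± 20.1 CPM in Srebp2WT, and it was not called (edgeR adjusted p = 0.0645). Without Srebp2cKO replicate 8 the log2 fold change was -0.82 (edgeR adjusted p = 0.00592), and DESeq2 on all libraries called it (DESeq2 adjusted p = 0.00629).

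Itgav, the alpha chain that pairs with Itgb8, lies on chromosome 2 from 83724397 to 83806916 on the plus strand. It had 135, 132 and 146 CPM in Srebp2cKO, against 171, 148 and 152 CPM in Srebp2WT. The genotypes did not overlap, but they were close (log2 fold change -0.19, 95% interval -0.37 to -0.01, edgeR adjusted p = 0.154). With the GC trend removed the value was -0.34 (edgeR adjusted p = 0.0432).

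Selplg lies on chromosome 5 from 113818536 to 113832644 on the minus strand. It had 288, 237 and 240.3 CPM in Srebp2cKO, against 264, 267 and 264 CPM in Srebp2WT. The Srebp2cKO libraries lay on both sides of the Srebp2WT libraries, which had an SD of only 1.55 CPM (log2 fold change -0.05, 95% interval -0.25 to 0.14, edgeR adjusted p = 0.708). The value was 0.16 with the GC trend removed.

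**Figure D2:**
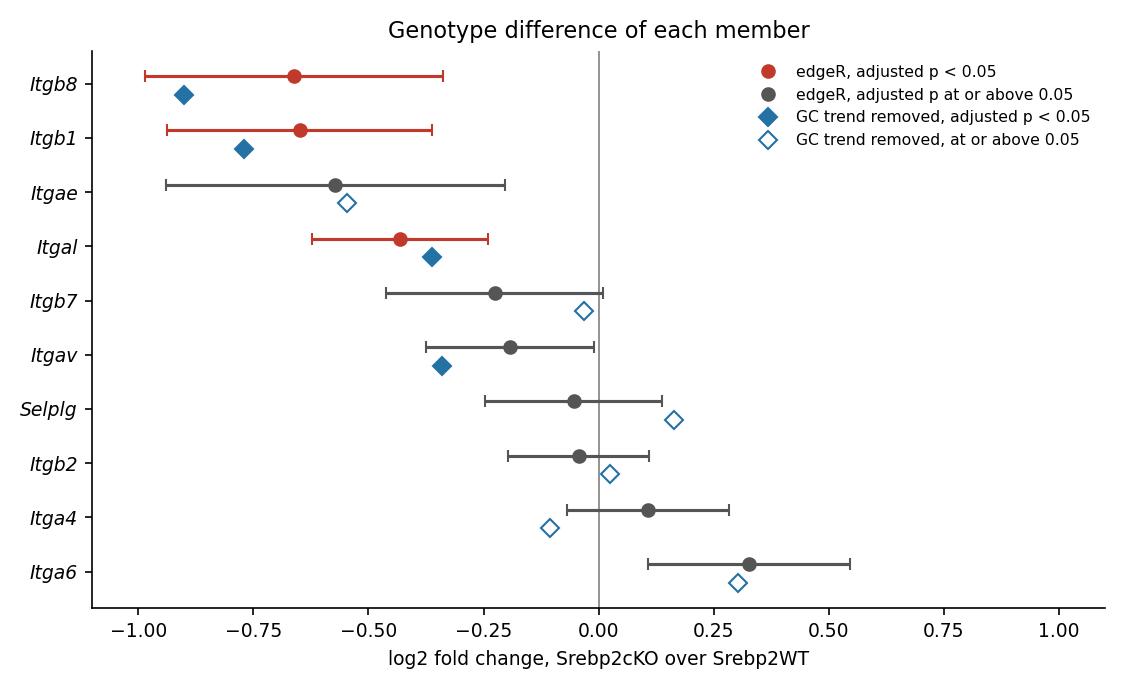
Log2 fold change of each member, Srebp2cKO over Srebp2WT. Circles with bars give the edgeR estimate and its 95% interval (red where called), and diamonds give the estimate with the GC trend removed (filled where called). Itgb8, Itgb1 and Itgal are called in both, Itgav is called with the trend removed, and the diamonds of Itga4, Itgb2 and Selplg lie on the other side of 0 from their circles.

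GC content is given beside these values because the level of a transcript depended on its GC content to a varying degree among the libraries. The slope of log2 CPM on transcript GC was -0.52, -0.78 and -0.65 log2 units per 10 points of GC in the Srebp2cKO libraries and -0.38, -0.36 and -0.52 in the Srebp2WT libraries. Srebp2cKO replicate 6 and Srebp2WT replicate 5 had nearly the same slope, and the difference between genotypes was not tested. The members' longest transcripts ranged from 40.4% GC (Itgb8) to 58.6% (Selplg), around a median of 49.97% for the tested genes. With the trend removed from each library, Itgb8 had a log2 fold change of -0.90 (edgeR adjusted p = 0.0107), Itgb1 -0.77 (edgeR adjusted p = 0.00497) and Itgal -0.36 (edgeR adjusted p = 0.0189). All 3 calls were kept, and the estimates for the low-GC genes Itgb8 and Itgb1 were further from 0 than without the correction.

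Per kilobase of exon, the members fell into an abundant and a scarce set. Levels are TMM-scaled CPM divided by the exon length of GENCODE M21. In Srebp2cKO, Itgb2 was highest at 179.6 ± 5.81 CPM per kb, followed by Itgb7 at 152 ± 23.8, Selplg at 138 ± 15.5, Itga4 at 109 ± 4.57, Itgal at 109 ± 8.58, Itga6 at 106 ± 7.76 and Itgb1 at 89.9 ± 15.8 CPM per kb. In Srebp2WT the order was Itgb2 at 185 ± 3.48 CPM per kb, Itgb7 at 177 ± 6.19, Itgal at 146 ± 9.40, Selplg at 143 ± 0.837, Itgb1 at 141 ± 18.0, Itga4 at 101 ± 6.59 and Itga6 at 84.4 ± 10.2 CPM per kb. The scarce set kept its order in both genotypes, with Itgae at 29.3 ± 8.18, Itgav at 19.5 ± 1.07 and Itgb8 at 4.16 ± 0.825 CPM per kb in Srebp2cKO, against 43.6 ± 5.22, 22.2 ± 1.80 and 6.59 ± 0.940 CPM per kb in Srebp2WT. Itgal stood at the fifth place in Srebp2cKO against the third in Srebp2WT, and Itgb1 at the seventh against the fifth. The exon length of Itgal, 6381 bases, exceeds its longest transcript of 5222 bases, so its place depends on the length used. Neighbours whose libraries overlapped in Srebp2cKO were Itgb2 with Itgb7, Itgb7 with Selplg, Itga4 with Itgal, Itgal with Itga6, and Itga6 with Itgb1. In Srebp2WT the neighbours that overlapped were Itgb2 with Itgb7, Itgal with Selplg, and Selplg with Itgb1.

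Chains that share a heterodimer were compared within each library, as the difference of their log2 CPM, which does not depend on how libraries are scaled. The chains differ in length, so the sign of such a difference says nothing of which chain has more transcripts. The difference of Itgal and Itgb2 was 0.36, 0.26 and 0.50 in Srebp2cKO, against 0.84, 0.74 and 0.72 in Srebp2WT. The difference of Itga4 and Itgb1 was 1.83, 1.79 and 1.31 in Srebp2cKO, against 0.82, 1.00 and 0.83 in Srebp2WT. The difference of Itga6 and Itgb1 was 0.55, 0.64 and 0.13 in Srebp2cKO, against -0.91, -0.29 and -0.44 in Srebp2WT, the widest gap between genotypes of the 6 pairs. The genotypes did not overlap in 5 of the 6 pairs. Each of these 5 had an exact two-sided permutation p = 0.1, the smallest that 3 against 3 libraries allow. Adjusted over the 6 pairs, that permutation p was 0.12. Itga4, Itgb1 and Itgb7 recur among the pairs, and each separated pair but Itga4 over Itgb7 holds a called member. The pairs are therefore not separate results. How often other gene pairs separate was not measured. Among single genes, 15.5% of all tested were lower without overlap and 16% higher.

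The other three pairs involve Itgb8 or Itgb7. Itgav over Itgb8 was 1.99 ± 0.20 in Srebp2cKO and 1.51 ± 0.20 in Srebp2WT, a difference of 0.48 on the log2 scale. Itga4 over Itgb7 was 1.40 ± 0.26 in Srebp2cKO and 1.05 ± 0.04 in Srebp2WT, a difference of 0.35 that was -0.073 with the GC trend removed. Itgae over Itgb7 was -1.87 ± 0.40 in Srebp2cKO and -1.51 ± 0.12 in Srebp2WT, a difference of -0.36 with overlapping libraries (exact two-sided permutation p = 0.3). With the GC trend removed the difference for Itgae over Itgb7 was -0.54 (exact two-sided permutation p = 0.1). Of the exon-length scaled sum of Itgb1 and Itgb7, which compete for Itga4, Itgb1 made up 30.7%, 39.5% and 41.8% in Srebp2cKO, against 46.1%, 41.5% and 45.1% in Srebp2WT. That share overlapped between the genotypes (exact two-sided permutation p = 0.2).

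**Figure D3:**
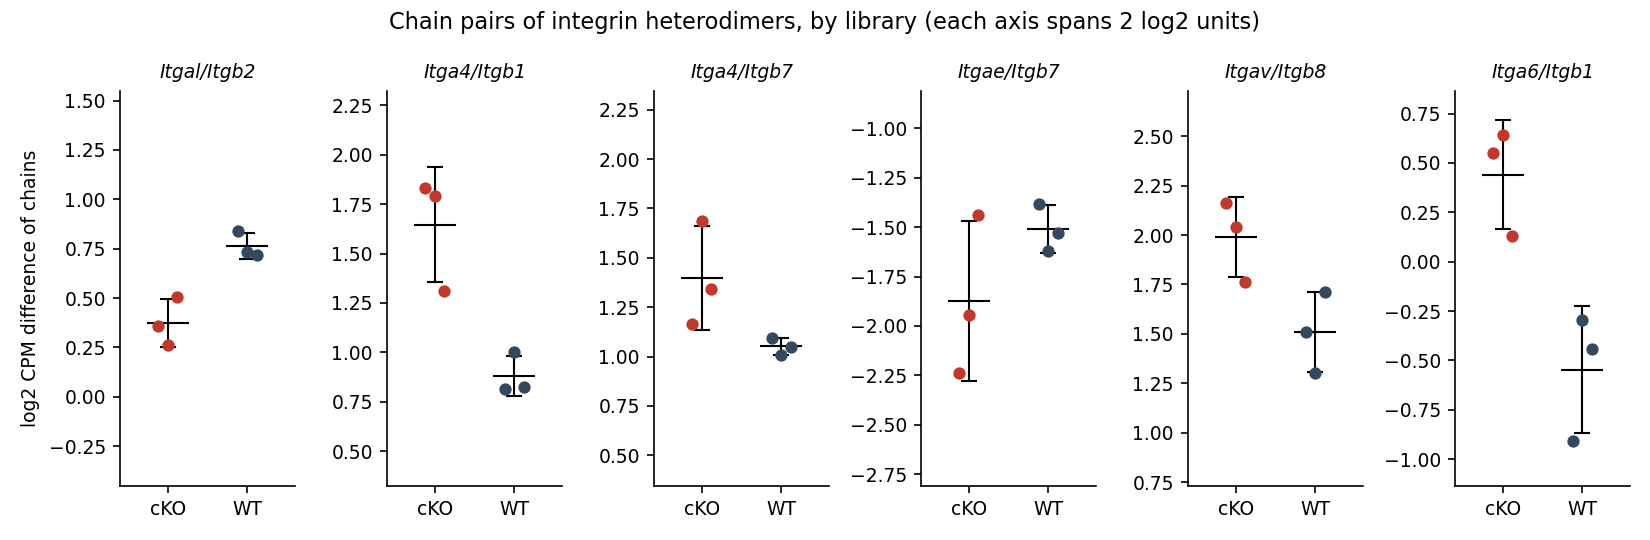
Difference of log2 CPM between the 2 chains of each integrin, by library, Srebp2cKO (cKO, red) left of Srebp2WT (WT, dark blue), with bars for the mean ± SD of 3 libraries. Each axis spans the same number of log2 units. The genotypes are apart for every pair but Itgae/Itgb7, and the means of Itga6/Itgb1 are 0.99 log2 units apart.

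Among the Srebp2cKO libraries, replicate 8 was highest for all 3 called members and for 5 of the 10 members, the others being Itgae and Itgav. It was lowest for Itgb2 and Itga4. The share of all tested genes that were highest in replicate 8 was not measured, so these counts are not read as a trait of the members. The summed effector Treg markers were highest in replicate 8, and the summed resting Treg markers lowest. The effector markers Klrg1, Tigit, Icos, Cxcr3, Pdcd1 and Gzmb summed to 249.9, 270.2 and 348 CPM in Srebp2cKO, against 526, 438 and 471 CPM in Srebp2WT, and 4 of the 6 were called lower. The resting markers Ccr7, Bcl2, Klf2, Tcf7 and Lef1 summed to 2139.5, 2218 and 1953 CPM in Srebp2cKO, against 1455, 1663 and 1699 CPM in Srebp2WT, and 3 of the 5 were called higher. Both lists were chosen with results of these data known. The part of Treg state in the fall of Itgal, Itgb1 and Itgb8 was not tested.

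**Figure D4:**
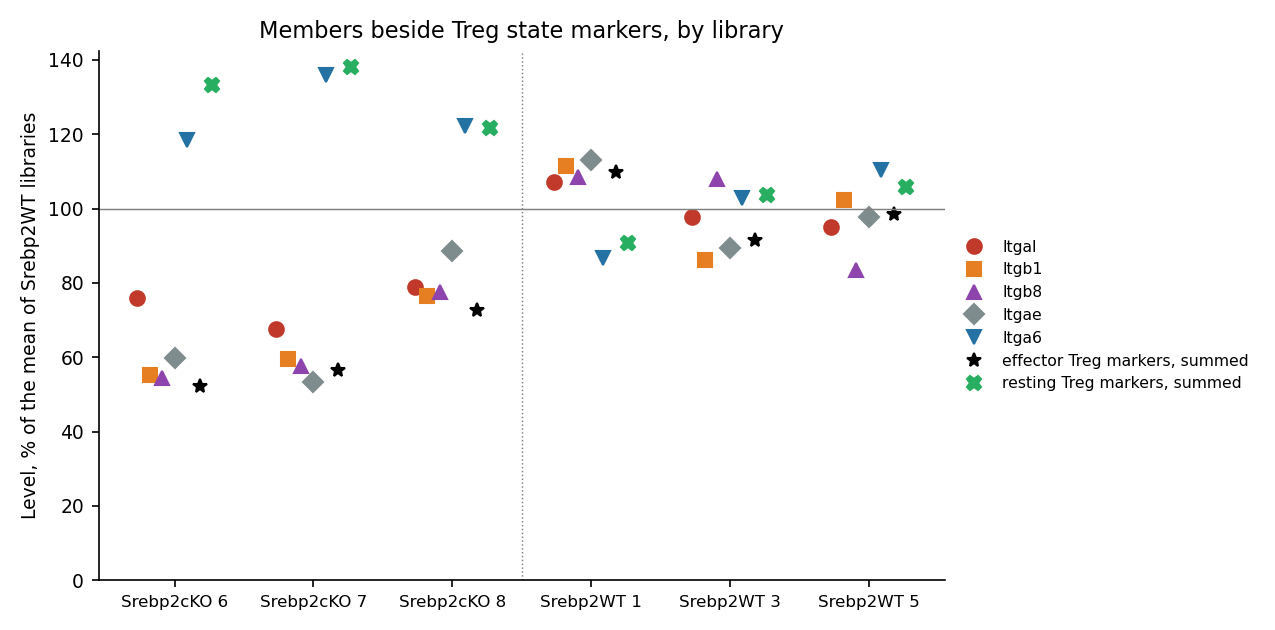
Levels of Itgal, Itgb1, Itgb8, Itgae and Itga6 and the summed effector and resting Treg markers in each library, as a percentage of their own mean over the Srebp2WT libraries (grey line). Itgal, Itgb1, Itgb8 and Itgae lie below the line with the effector markers in all Srebp2cKO libraries, nearest to it in replicate 8. Itga6 lies above it with the resting markers in those libraries. Both are highest in replicate 7, but Itga6 is lowest in replicate 6 and the resting sum in replicate 8. The other members are not shown, and both marker lists were chosen with results of these data known.

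Markers of other cells that carry integrins were also measured, and the sums for myeloid, B and stromal cells were of the order of Itgb8 or above it. Summed myeloid markers were 32.02 to 38.0 CPM in Srebp2cKO and 49.2 to 82.1 CPM in Srebp2WT, nearly all of it Cybb, with Lyz2 at no more than 0.313 CPM in any library. Cybb was called lower (log2 fold change -0.87, edgeR adjusted p = 0.0216), in the direction of the called members. Fcgr3, with too few counts to test, went the other way, at 0.734, 1.03 and 0.525 CPM in Srebp2cKO against 0.125, 0.193 and 0.271 CPM in Srebp2WT. Summed B cell markers were 26.0 to 34.7 CPM in Srebp2cKO and 56.4 to 77.4 CPM in Srebp2WT, mostly Cd74, with Ms4a1 at 0 in Srebp2cKO and at most 0.129 CPM in Srebp2WT. Of the 4 B cell markers tested 3 were called lower, namely Cd79b (-0.68), Cd22 (-1.52) and Cd74 (-1.14, log2 fold changes). The other, Cd79a, was not called (log2 fold change 0.56, edgeR adjusted p = 0.308). Summed dendritic cell markers were 1.16 to 3.45 CPM in Srebp2cKO and 2.51 to 3.88 CPM in Srebp2WT, with Flt3 and Clec9a at 0 counts in all 6 libraries. Natural killer cell markers summed to 3.85 to 7.61 CPM in Srebp2cKO and 4.51 to 5.62 CPM in Srebp2WT, with Ncr1 and Klra8 at 0 throughout. Klrb1c was called lower (log2 fold change -1.36, edgeR adjusted p = 0.0399). Eomes, which made up most of that sum, was not called (log2 fold change 0.66, edgeR adjusted p = 0.170). Platelet markers summed to 0.175 to 0.294 CPM in Srebp2cKO and 0.376 to 0.406 CPM in Srebp2WT, with Ppbp and Pf4 at 0. CD8 T cell markers summed to 8.77 to 10.5 CPM in Srebp2cKO and 6.97 to 7.39 CPM in Srebp2WT. Stromal markers summed to 218 to 235 CPM in Srebp2cKO and 168 to 176 CPM in Srebp2WT, nearly all of it Pecam1, which T cells also express and which was called higher (log2 fold change 0.39, edgeR adjusted p = 0.0139). Their part in the results was not tested.

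The genes whose levels followed the called members most closely over the 6 libraries were found by Pearson's correlation of log2 CPM with 11922 other genes. For Itgal these were Plxdc1, Kcna3 and Cxcr3, each at r = 0.996 or 0.995. For Itgb1 they were H2-DMb2 at r = 0.998, Katnal1 at 0.994 and Fgl2 at 0.992. For Itgb8 they were Dgki at r = 0.999, Sec24d at 0.999 and Arhgef5 at 0.994. Correlations above 0.95 were shared by 330 genes for Itgal, 88 for Itgb1 and 157 for Itgb8. Each correlation covers 6 points that share the genotype difference and the scaling, so a high value is common and describes only these libraries.

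Of the 17 other integrin chains of the mouse, 11 had enough counts to test, and 2 were called lower and 0 higher (median log2 fold change -0.25), where 4.24% of all tested genes were called lower and 2.37% higher. An unadjusted p under 0.05 was reached by 5 of the 11, against 29.1% of all tested genes, and DESeq2 called 2 lower and 1 higher, against 6.52% and 5.25%. Itga3, a laminin-binding alpha chain, had 4.33, 4.06 and 4.08 CPM in Srebp2cKO, against 7.89, 6.96 and 6.84 CPM in Srebp2WT (log2 fold change -0.80, edgeR adjusted p = 0.0257). Itgb5, a partner of Itgav, had 0.514, 0.903 and 1.05 CPM in Srebp2cKO, against 2.01, 2.58 and 2.57 CPM in Srebp2WT (log2 fold change -1.50, edgeR adjusted p = 0.0274). Both fell, but the call of Itga3 was lost with the GC trend removed (log2 fold change -0.60, edgeR adjusted p = 0.0631) and in 4 of the 6 fits that left out 1 library, and the call of Itgb5 in 3 of the 6. The Itga3 losses came without Srebp2WT replicate 1 or 3 or Srebp2cKO replicate 7 or 8 (edgeR adjusted p up to 0.120), and those of Itgb5 without Srebp2WT replicate 1 or 3 or Srebp2cKO replicate 7 (up to 0.111). Itgb3, another partner of Itgav, had 109.5, 105 and 106 CPM in Srebp2cKO, against 68.4, 80.6 and 97.1 CPM in Srebp2WT, and was not called (log2 fold change 0.38, edgeR adjusted p = 0.0686). Itga8, Itgax and Itgb6 had 0 counts in every library, and Itgam, the CD11b chain of myeloid cells, stayed at or under 2.57 CPM. Itga1 (-1.33), Itga7 (-0.90) and Itgam (1.07) had large log2 fold changes at such low levels and were not called. The call of Itgb5 also rests on such low levels, with at most 40 counts in any library.

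Integrin activation genes were called in both directions. Of 34 genes fixed for talin, kindlin, Rap1 and adaptor functions, 32 were tested, and 2 were called higher and 1 lower (median log2 fold change 0.06), where 2.37% of all tested genes were called higher and 4.24% lower. An unadjusted p under 0.05 was reached by 13 of the 32, against 29.1% of all tested genes. The genotypes did not overlap for 10 that were higher and 3 that were lower, against 16% and 15.5% of all tested genes. DESeq2 called 5 higher and 1 lower, against 5.25% and 6.52%. Rap1b, the small GTPase that switches integrins on, had 432, 525 and 458 CPM in Srebp2cKO, against 321, 342 and 394 CPM in Srebp2WT (log2 fold change 0.42, edgeR adjusted p = 0.0361). Sipa1, which inactivates Rap1, had 194, 168 and 159 CPM in Srebp2cKO, against 226, 236 and 209.9 CPM in Srebp2WT (log2 fold change -0.37, edgeR adjusted p = 0.0392). Actn1, an actin crosslinker at adhesions, had 266, 282 and 272 CPM in Srebp2cKO, against 174, 231 and 221 CPM in Srebp2WT (log2 fold change 0.39, edgeR adjusted p = 0.0490). With the GC trend removed, Rap1b had 0.18 (edgeR adjusted p = 0.127) and Sipa1 -0.08 (edgeR adjusted p = 0.519), and neither was called. The call of Actn1 was kept with the GC trend removed (0.46, edgeR adjusted p = 0.0233) but lost with upper-quartile scaling (edgeR adjusted p = 0.0521) and with total counts alone (edgeR adjusted p = 0.0555). Rap1b and Sipa1 kept their calls in 2 of the 6 fits that left out 1 library, and Actn1 in 1. Rap1b and Sipa1 lost them without Srebp2WT replicate 1 or 3 or Srebp2cKO replicate 7 or 8, and Actn1 also without Srebp2WT replicate 5, with edgeR adjusted p of up to 0.163. The log2 fold changes of Fyb (0.29), Apbb1ip (0.29), Stk4 (0.27) and Ptk2 (0.51), the next by p, did not pass. Tln1, talin, had a log2 fold change of -0.16 (edgeR adjusted p = 0.295) and Fermt3, kindlin-3, -0.19 (edgeR adjusted p = 0.3004), named here for their roles.

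PSGL-1 binds selectins only after sugars and sulfate have been added. Of 19 genes for that synthesis and for other selectin ligands, 16 were tested, and 2 were called higher and 0 lower (median log2 fold change -0.06), where 2.37% of all tested genes were called higher and 4.24% lower. An unadjusted p under 0.05 was reached by 3 of the 16, against 29.1% of all tested genes, and DESeq2 called 2 higher and 1 lower, against 5.25% and 6.52%. C1galt1, which makes the core 1 sugar, had 58.8, 73.4 and 69.1 CPM in Srebp2cKO, against 44.0, 42.6 and 53.5 CPM in Srebp2WT (log2 fold change 0.52, edgeR adjusted p = 0.0272). St3gal6, a sialyltransferase, had 6.90, 9.23 and 6.35 CPM in Srebp2cKO, against 3.70, 4.12 and 4.603 CPM in Srebp2WT (log2 fold change 0.86, edgeR adjusted p = 0.0361). Both calls were lost with the GC trend removed, where the log2 fold change was 0.27 for C1galt1 (edgeR adjusted p = 0.0553) and 0.70 for St3gal6 (edgeR adjusted p = 0.0539). C1galt1 kept its call in 2 and St3gal6 in 3 of the 6 fits that left out 1 library, with losses for both without Srebp2WT replicate 1 or 3 or Srebp2cKO replicate 7, and for C1galt1 without Srebp2cKO replicate 8 (edgeR adjusted p up to 0.126 and 0.146). Fut7, the fucosyltransferase that completes sialyl Lewis x, had 1.69, 1.16 and 1.52 CPM in Srebp2cKO, against 3.76, 2.06 and 3.38 CPM in Srebp2WT, and was not called by edgeR (log2 fold change -1.08, edgeR adjusted p = 0.0626). B4galt1 (0.14), Galnt1 (0.20) and Tpst2 (-0.20) did not pass.

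**Figure D5:**
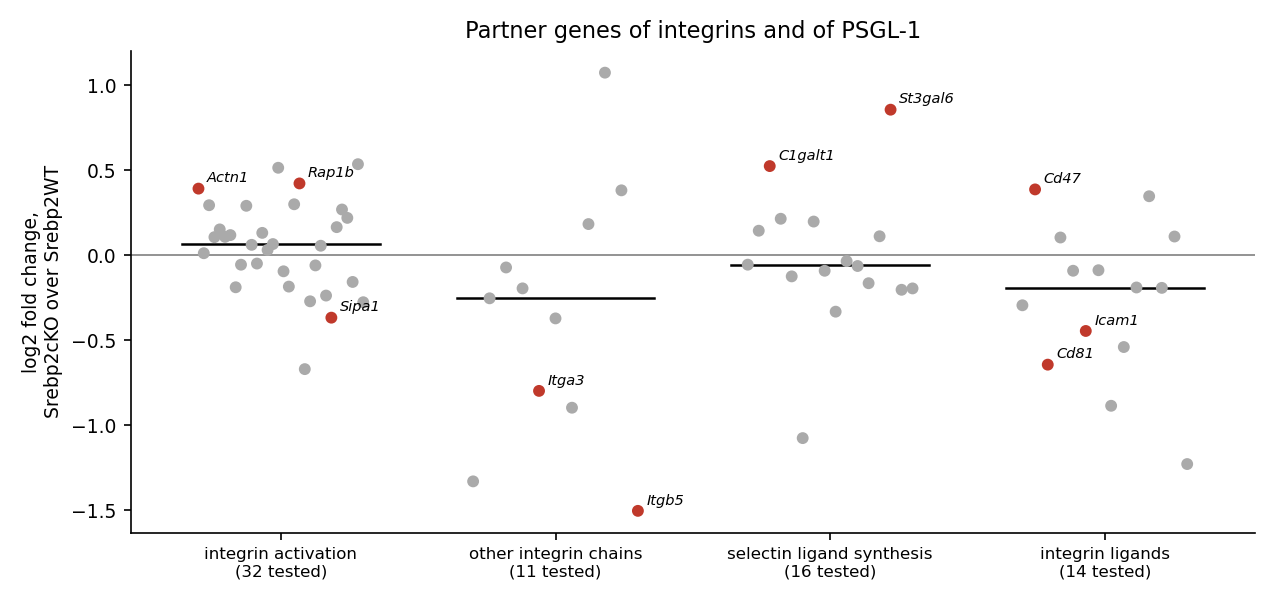
Log2 fold change, Srebp2cKO over Srebp2WT, of every tested gene in 4 lists of partner genes. Points are genes in alphabetical order, red and named where called by edgeR, and black lines are list medians. Called genes lie on both sides of 0 in the activation list and in the list of ligands and membrane partners.

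Among 22 integrin ligands and membrane partners, 14 were tested, and 2 were called lower and 1 higher (median log2 fold change -0.19), where 4.24% of all tested genes were called lower and 2.37% higher. An unadjusted p under 0.05 was reached by 7 of the 14, against 29.1% of all tested genes. Cd81, a tetraspanin that associates with integrins, had 37.5, 37.2 and 35.4 CPM in Srebp2cKO, against 56.9, 64.4 and 50.8 CPM in Srebp2WT. It fell (log2 fold change -0.64, edgeR adjusted p = 0.00646), with the call kept in all 6 fits that left out 1 library. Icam1, the ligand of LFA-1, had 40.6, 37.9 and 43.1 CPM in Srebp2cKO, against 61.3, 56.0 and 48.4 CPM in Srebp2WT (log2 fold change -0.45, edgeR adjusted p = 0.0331). Cd47, the integrin-associated protein, had 278, 291 and 288 CPM in Srebp2cKO, against 205, 209 and 242 CPM in Srebp2WT (log2 fold change 0.39, edgeR adjusted p = 0.0249). With the GC trend removed, Icam1 (-0.32, edgeR adjusted p = 0.0574) and Cd47 (0.21, edgeR adjusted p = 0.0855) were not called. Each of them kept the call in 2 of the 6 fits that left out 1 library, and lost it without Srebp2WT replicate 1 or 3 or Srebp2cKO replicate 7 or 8 (edgeR adjusted p up to 0.146 for Icam1 and 0.122 for Cd47). Tgfb1, the cargo that the Itgav and Itgb8 pair activates, had a log2 fold change of -0.19 (edgeR adjusted p = 0.123) that was 0.13 with the GC trend removed. Vcam1 (-1.23), Icam5 (-0.89) and Lama5 (-0.54) were at most 4.01 CPM in every library and did not pass.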

How the data were processed

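Total RNA of 6 Treg samples was extracted with RNeasy and sequenced after ribosomal depletion (KAPA HyperPrep with RiboErase), per the labels' protocols. The deposited table holds raw counts per gene symbol in 1 column for each sample. HISAT2 2.2.1, Cell Ranger and mm10 appear in the submitters' processing notes without a role. No counting tool, annotation or strand setting is named in the sources used here, and reads of overlapping genes could be assigned to either.

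Genes kept by filterByExpr (11932 of 24421) were tested with edgeR 4.0.16 in R 4.3.3 (TMM, quasi-likelihood F test, Srebp2cKO minus Srebp2WT, no covariate), with Benjamini-Hochberg adjustment over all tested genes. SE is the size of the log2 fold change divided by the square root of F. The fit was also run on counts simulated without a GC trend, and that run is not used here to judge it. Positions, exon lengths and GC came from GENCODE M21 (GRCm38), which held 96.0% of the tested genes by symbol. The GC alternative fitted log2 CPM against GC by loess with a span of 0.3 in each library and took the curve out as offsets. Log2 CPM for chain pairs used a prior count of 2. Other alternatives were DESeq2 1.42.0, voom of limma 3.58.1, scaling by RLE, by upper quartiles or by total counts, other filters, a false discovery rate of 0.1 and leaving out each library.

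The members and lists were chosen with earlier results of these data known, and 1 gene of the resting marker list is not reported here. Named genes were all members, all called genes of the other lists with up to 4 further genes of each by smallest p, and the 3 genes most correlated with each called member. The SE and p-values of edgeR rest on dispersions estimated over the 6 libraries, so they cover spread between libraries as well as counting error. Reads carry no molecular identifiers.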

Additional observations from a re-analysis of the deposited data

How the results depend on the processing

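The calls of Itgal, Itgb1 and Itgb8 were kept under the 8 other settings of scaling, tool, filter and GC, with log2 fold changes of -0.47 to -0.36, -0.77 to -0.65 and -0.90 to -0.66. Leaving out 1 library gave 0 to 4 lower and 0 to 1 higher members, 135 to 787 lower and 29 to 700 higher among all genes, 0 to 3 lower and 0 to 4 higher activation genes, 0 to 2 lower and 0 to 1 higher other chains, 0 to 2 higher selectin ligand genes, and 1 to 2 lower and 0 to 1 higher ligands and partners. The causes of these shifts were not tested, and fewer libraries were fitted in each. DESeq2 called 778 genes lower and 626 higher, and 1 member (Itga6), 5 activation genes and 1 other chain (Itgb3) higher and 1 selectin ligand gene (Fut7) lower. With no filter, 473 genes were higher, with 1 member and 1 other chain among them and 1 selectin ligand gene lower. Total counts alone gave 184 higher genes and, like upper-quartile scaling, 1 higher activation gene. A false discovery rate of 0.1 gave 1032 lower and 861 higher genes, with 1 member, 1 other chain and 5 activation genes higher and 1 selectin ligand gene lower. With the GC trend removed, 0 activation genes were lower and 1 higher, 1 other chain was lower, 0 selectin ligand genes and 0 ligands and partners were higher, 1 ligand or partner was lower, and the Itga4 over Itgb7 difference was -0.073. The counts of lower members stayed at 3 or 4 under all settings that kept the 6 libraries. No paired analysis was possible because the genotypes share no replicate number. The members held 409 or more counts per library, and counting error was not separated from the spread between libraries.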
